A study of Mus musculus with 12 samples.

Results

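The genes of the major histocompatibility complex (MHC) and of its antigen presentation machinery were followed in the intestine and liver of mice given corticosterone (CORT). The members were the rows of the expression tables whose gene name begins with H2-, plus B2m, Cd74, Ciita, Nlrc5, Tap1, Tap2 and Tapbp. The 3 H2-named rows whose name holds -ps, which marks a pseudogene, were left out. Pseudogenes without that mark stayed in. By GENCODE M21 these were H2-Q3, H2-K2, H2-Pa and H2-Pb, and the polymorphic pseudogenes H2-Q5, H2-Bl, H2-T10 and H2-Ea. This gave 49 genes of 55416 in the tables: 28 class I heavy chains, 5 class I partners, 12 class II genes and 4 other H2-named genes. All animals were male C57BL6/J mice, 8 weeks old at the start, with no genetic change named. They received subcutaneous CORT at 40 mg/kg or the vehicle alone (Veh, a mix of DMSO, Tween and water) daily for 8 weeks. RNA-seq was run on 50 mg of frozen liver or intestine (duodenum), with 3 Veh and 3 CORT libraries per tissue and 12 in all. The labels call the libraries biological replicates and do not name the animals, so p-values describe the spread between these libraries. Values were deposited as TPM, a transcript abundance scaled for gene length and library total, so that levels can be compared between genes, while the read depth of a library is unknown.

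MHC class I molecules, on nearly every nucleated cell, show peptides made inside the cell to CD8+ T cells. Their heavy chain needs the light chain B2m, and the peptides are cut by the proteasome, pumped into the endoplasmic reticulum by the transporter Tap1-Tap2 and loaded with the help of tapasin (Tapbp). MHC class II molecules show peptides from engulfed material to CD4+ T cells. They are made chiefly by B cells, dendritic cells and macrophages, and by the epithelium of the small intestine, where the transactivator Ciita switches the whole group on. Glucocorticoids such as CORT are known to damp many immune functions.

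The libraries carried the marks of their labels. Fkbp5, a standard target of the glucocorticoid receptor, stood between 8.68 and 23.3 TPM in the 3 intestine Veh libraries and between 252 and 379 TPM in the 3 CORT libraries. In the liver it stood between 7.14 and 19.5 TPM in Veh and between 221 and 273 TPM in CORT. The hepatocyte product albumin (Alb) reached 32823 to 59476 TPM in the liver and at most 0.39 TPM in the intestine, while the brush border gene Vil1 gave 839 to 1436 TPM in the intestine and at most 0.34 TPM in the liver. In the intestine libraries Veh2 and Veh3, pancreatic acinar genes, counted without Zg16, held 3.92% and 3.15% of all TPM, against 0.0211% to 0.0443% in the other intestine libraries.

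The members took up 1.14% to 1.36% of the TPM of an intestine library and 0.609% to 0.748% of that of a liver library. Levels set across the tissues here come from separate tables, each library being scaled to its own total. In the intestine 35 of the 49 members averaged at least 1 TPM in a group and were tested, and 10 were listed at 0 in every library. In the liver 26 were tested, all of them also tested in the intestine, and 15 were listed at 0. Of the 12 heavy chains of the M family, 8 were at 0 throughout the intestine and 10 throughout the liver. H2-Ea, the I-E alpha chain that C57BL/6 mice are known to lack, was at 0 in every library except intestine CORT3 (0.11 TPM).

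Both tissues shared the classical heavy chains and B2m among the highest members and differed in the nonclassical chains. H2-Q10, a secreted heavy chain known as a liver product, had 1558 to 1777 TPM over the 6 liver libraries and 4.98 to 15.5 TPM over the 6 intestine libraries. H2-T3, the thymus leukaemia antigen of intestinal epithelium, had 118 to 160 TPM in the intestine and was listed at 0 in all liver libraries. H2-Q2 had 441 to 554 TPM in the intestine and 0.5 to 2.26 TPM in the liver. H2-T3 was picked out after its values were seen. H2-Ke6, which codes for a steroid and fatty acid enzyme and not for an MHC molecule, had 19.4 to 36.5 TPM in the intestine and 67.3 to 99.6 TPM in the liver, and Veh and CORT overlapped in both.

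In the intestine, the comparison of CORT with Veh asked how chronic CORT changed the tissue's transcripts. A gene was called when limma's adjusted p was 0.05 or less and the fold change over 1.5. On that rule 1 member of the 35 tested was called, the peptide transporter subunit Tap2, which fell. Over all 13607 genes tested, 1.23% were called higher and 0.919% lower. The groups of 3 did not overlap for 5 members that stood higher in CORT and 12 that stood lower, against 12.2% and 14.3% of all genes. Fold changes are given on the scale of log2(TPM + 1), CORT minus Veh, which understates the change of low genes.

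The class I heavy chains went both ways in the intestine, and the classical chains overlapped between the groups. H2-K1, a classical heavy chain and the most abundant one, measured 2711, 2569 and 2641 TPM in Veh1 to Veh3 and 3356, 2671 and 3242 TPM in CORT1 to CORT3. The groups overlapped through CORT2, and the log2 fold change was 0.22 (SE 0.15, limma adjusted p 0.456). H2-D1, the other classical chain of this strain, measured 971, 1026 and 1026 TPM in Veh and 1320, 994 and 1051 TPM in CORT, which overlapped (0.14, adjusted p 0.630 by limma). H2-Q2 gave 536, 441 and 476 TPM in Veh and 515, 542 and 554 TPM in CORT, also overlapping. Over the 18 heavy chains tested, 9 stood higher and 9 lower, the median log2 fold change was -0.01, and the median of all genes was -0.01 too. They ran from -0.41 for H2-M3, which shows formylated peptides, to 1.02 for H2-Q5. H2-Q5 measured 5.45, 6.06 and 6.77 TPM in Veh and 5.19, 26.9 and 15.9 TPM in CORT. H2-Q5, H2-Bl, H2-T10 and H2-Q3, pseudogenes in GENCODE M21, were counted among the 18. limma called 0 of the 18, and 3 higher and 2 lower had an unadjusted p under 0.05, as did 1186 genes in the higher direction and 1432 in the lower among all 13607 tested in the intestine. The median of the heavy chains turned to 0.15 when Veh2 and Veh3 were left out.

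Some nonclassical chains stood apart from that median without being called. They were picked out after their values were seen. H2-Q1 measured 138, 104 and 112 TPM in Veh and 199, 194 and 172 TPM in CORT, so that every CORT library was above every Veh library (log2 fold change 0.68, SE 0.15, limma adjusted p 0.0737). H2-Q10 measured 4.98, 5.80 and 5.21 TPM in Veh and 8.97, 9.25 and 15.5 TPM in CORT, with CORT3 the highest (0.91, SE 0.21, adjusted p 0.0840 by limma). H2-T22, a ligand of some gamma-delta T cell receptors, was lower in each CORT library, at 51.79, 61.4 and 57.9 TPM in Veh and 42.5, 35.5 and 51.75 TPM in CORT (-0.40, adjusted p 0.242 by limma). H2-T23, which shows leader peptides of other class I chains to natural killer cells, overlapped, at 412, 441 and 433 TPM in Veh and 470, 349 and 486 TPM in CORT. Since class I genes are close copies, reads may have been split between them: of the windows of 150 bases, the read length, in the GENCODE M21 transcript of H2-Q7, 9.68% were found unchanged in another gene's transcript, 5.99% for H2-Q6, 4.64% for H2-Q1, 1.79% for H2-D1, and 0% for H2-K1, H2-Q2 and H2-Q10. These shares count exact matches alone.

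The partners of class I parted in the intestine: B2m stood higher in CORT, while the peptide supply genes stood lower. B2m measured 3939, 4031 and 3879 TPM in Veh and 4239, 4387 and 5135 TPM in CORT. The groups did not overlap, but the difference of 0.21 (SE 0.14, limma adjusted p 0.464) was not called. Tap2 measured 45.6, 45.0 and 45.2 TPM in Veh and 29.6, 23.6 and 26.4 TPM in CORT. Every CORT library lay below every Veh library, and the fall was -0.76 (SE 0.12, limma adjusted p 0.0350), from a mean of 45.3 TPM ± 0.328 to 26.5 TPM ± 3.00 (SD, n = 3 each, limma). The call was lost, at adjusted p 0.0623 to 0.138, whenever 1 of the 6 libraries was left out, and the log2 fold change then ran from -0.83 to -0.68. Without both libraries rich in acinar genes, where Veh is 1 library and limma called 2 genes higher and 8 lower over all genes, the fold change was -0.77 (adjusted p 0.379), which says nothing about stability. The call held with all 22 listed acinar genes removed and the rest rescaled (limma adjusted p 0.0299). Zg16, high in every intestine library (4313 to 6499 TPM), was removed with them.

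The other subunits and helpers of peptide loading lay on the same side. Tap1, the partner subunit of Tap2, measured 51.7, 64.6 and 63.7 TPM in Veh and 43.9, 29.8 and 44.7 TPM in CORT. The groups did not overlap (log2 fold change -0.61, SE 0.19, limma adjusted p 0.157). Tapbp, which holds the heavy chain to the transporter, measured 200, 182 and 178 TPM in Veh and 140, 89.1 and 149 TPM in CORT, with CORT2 lowest (-0.60, SE 0.21, adjusted p 0.188 by limma). Nlrc5, the transactivator of class I genes, was low and did not overlap, at 3.30, 4.4 and 3.91 TPM in Veh and 3.24, 3.07 and 1.67 TPM in CORT (-0.44, adjusted p 0.333 by limma). The 5 partners had a median log2 fold change of -0.60.

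**Figure D1:**
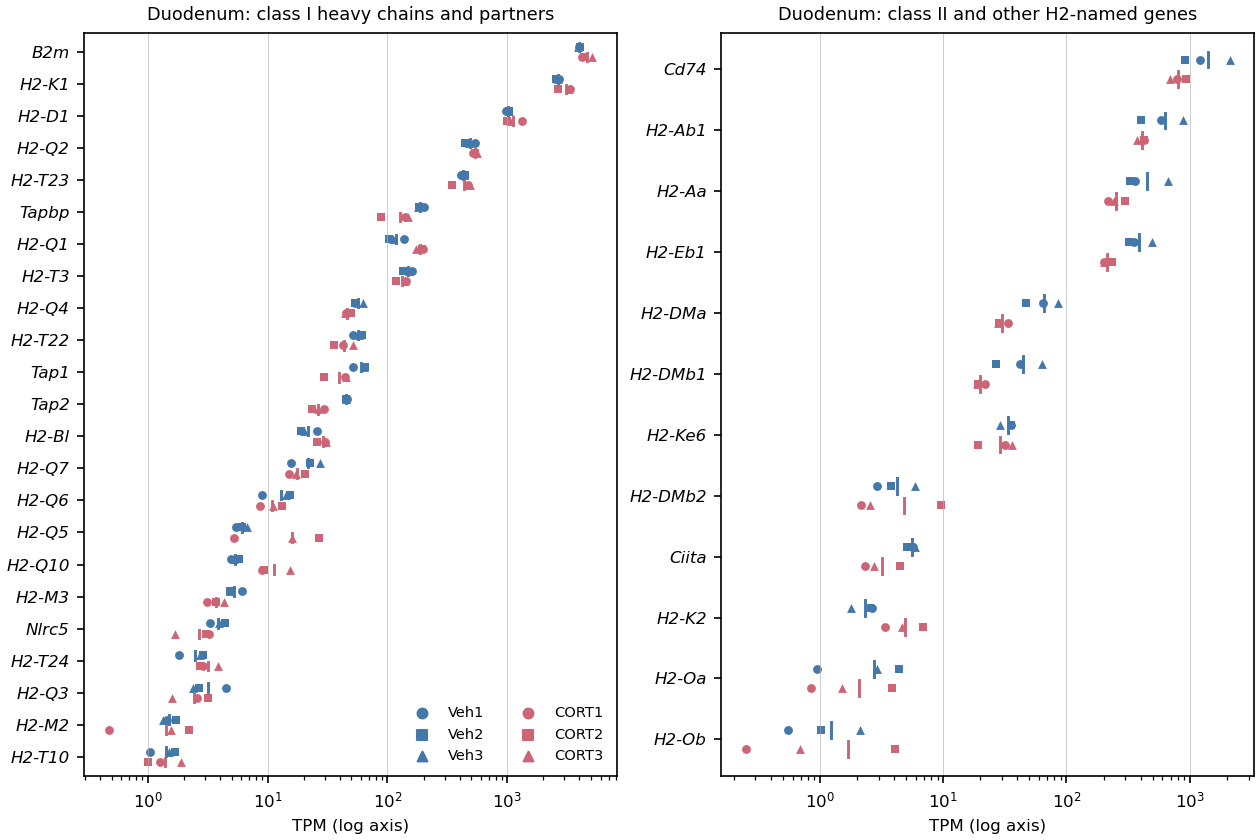
TPM (log axis) of the members tested in the intestine, in each Veh library (blue) and CORT library (red), with a vertical bar at each group's mean. The points of Tap2 lie between 45.0 and 45.6 TPM in Veh and between 23.6 and 29.6 TPM in CORT, while H2-K1 and H2-D1 overlap.

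Tap1 lies next to the immunoproteasome gene Psmb9, on the opposite strand, with 225 bases between the annotated starts. The stretch is shown because both genes stood lower in CORT and it lies upstream of each. It reads, on the strand of Tap1, at chr17:34187331-34187555 (GRCm38.p6, RefSeq, + strand), with the Y box in capitals (GATTGG, here on the opposite strand, that is on the strand of Psmb9):
Tap1-Psmb9: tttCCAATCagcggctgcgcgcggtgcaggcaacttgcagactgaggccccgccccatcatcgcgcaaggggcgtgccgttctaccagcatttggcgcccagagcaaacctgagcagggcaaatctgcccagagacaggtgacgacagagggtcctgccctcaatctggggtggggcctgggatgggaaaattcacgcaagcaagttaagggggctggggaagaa
The Y box letters, a binding motif of NF-Y that MHC promoters share, were searched on both strands from 250 bases before to 50 after a start and were held by 16.1% of all 32851 RefSeq windows. The tandem half-sites of interferon response factors (GAAA, any 2 bases, GAAA), which 3.44% of all windows held, were not among the letters of this stretch. They were in the windows of B2m, H2-T23 and H2-T22. A match is a match of letters, and no binding was measured.

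The proteasome genes of the pathway were counted as a list, beside the members. The immunoproteasome is the form of the protease that interferon induces, with catalytic subunits that favour peptides for class I, and Psme1 and Psme2 form its activator. All 5 of its genes lay lower in every CORT library of the intestine than in any Veh library, and 2 of the 5 were called. Over all genes, 14.3% lay lower without overlap and 0.919% were called lower. Psmb9 measured 119, 115 and 123 TPM in Veh and 64.6, 43.1 and 44.9 TPM in CORT, a fall of -1.23 (SE 0.17, limma adjusted p 0.0253). Psmb10 measured 342, 290 and 294 TPM in Veh and 185, 106 and 131 TPM in CORT, a fall of -1.16 (SE 0.21, limma adjusted p 0.0469). With 1 library left out at a time, each of these calls held once in 6 fits, without CORT1. With Veh1 as the single Veh library the log2 fold changes were -1.23 and -1.31, and neither was called (adjusted p 0.332 and 0.373 by limma).

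The standard catalytic subunits, which the immunoproteasome subunits replace, were set beside them. Psmb5, Psmb6 and Psmb7 overlapped between the groups, and their log2 fold changes ran from -0.23 to 0.00. limma called 0 of these 3, and 0 had an unadjusted p under 0.05. Psme2, the most abundant of the immunoproteasome list, measured 606, 570 and 738 TPM in Veh and 543, 268 and 383 TPM in CORT, with CORT1 close to Veh2 (adjusted p 0.197 by limma).

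Among 5 further genes of loading in the endoplasmic reticulum, 1 was called, against 0.919% of all genes called lower. Tapbpl, a relative of tapasin that edits the bound peptide, measured 32.2, 31.9 and 34.0 TPM in Veh and 20.2, 18.2 and 20.1 TPM in CORT, a fall of -0.71 (SE 0.11, limma adjusted p 0.0310). The chaperone Calr, the most abundant of that list, overlapped, at 473 to 601 TPM in Veh and 368 to 486 TPM in CORT. Of the class I-like genes, Fcgrt, the receptor that rescues and carries IgG, rose, from 95.7, 72.3 and 89.1 TPM in Veh to 193, 139 and 161 TPM in CORT (0.93, SE 0.17, limma adjusted p 0.0492). The calls of Tapbpl and Fcgrt were lost whenever a library was left out, at adjusted p of 0.0618 to 0.137 and 0.0666 to 0.149.

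**Figure D2:**
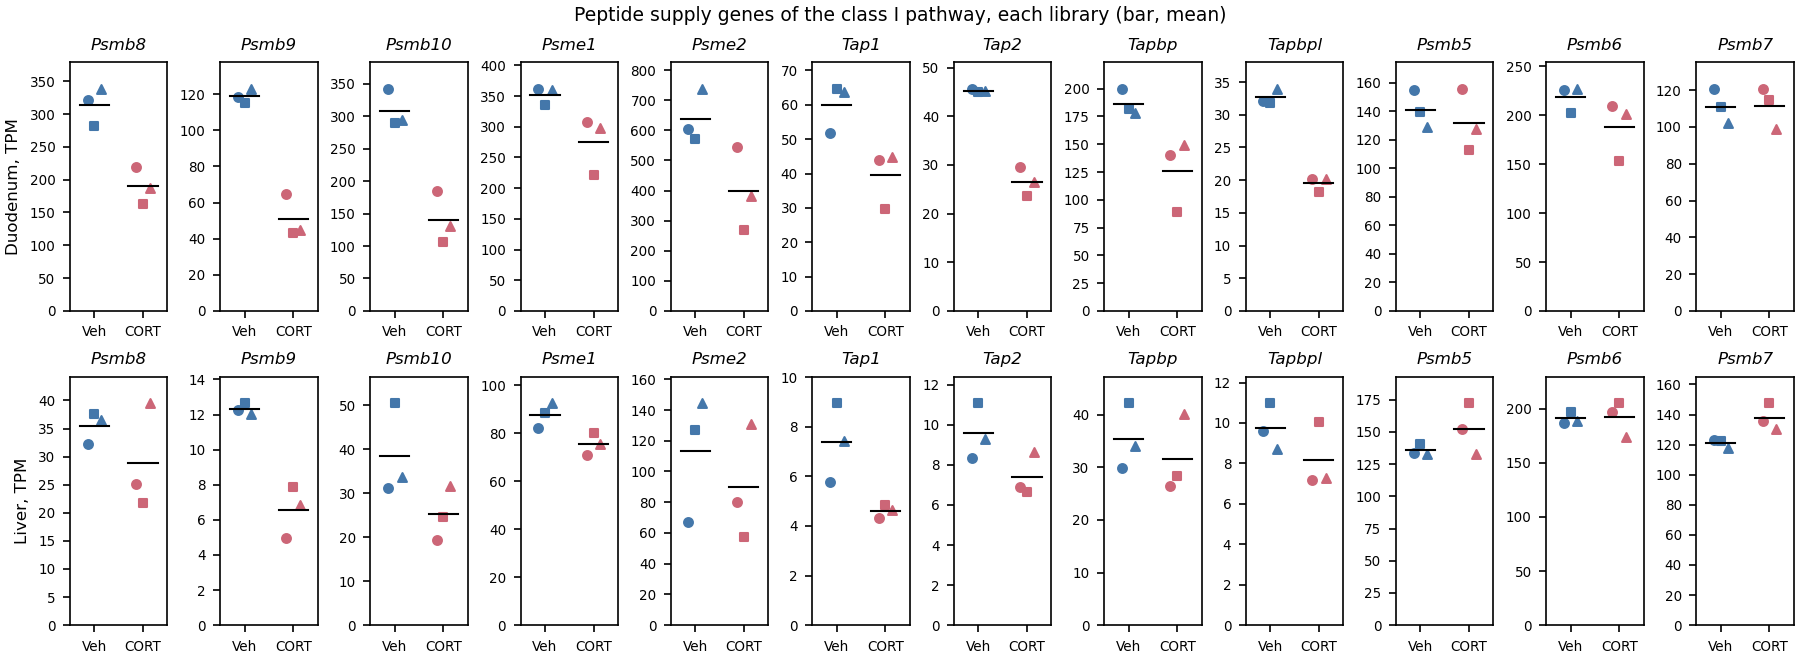
TPM of 12 genes that cut, carry or load class I peptides, in the intestine (top) and liver (bottom), with 1 point per library and a bar at the mean, each axis starting at 0. In the intestine Psmb8, Psmb9, Psmb10, Psme1, Psme2, Tap1, Tap2, Tapbp and Tapbpl do not overlap between Veh and CORT, while the standard subunits Psmb5, Psmb6 and Psmb7 do. Over all genes tested in the intestine, 14.3% lay lower in CORT without overlap. Of the 5 further loading genes of the endoplasmic reticulum, Tapbpl alone is drawn, and the 4 others overlapped in the intestine.

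The class II genes stood lower in CORT as a group in the intestine, and none was called. Of the 12, 10 were tested and 9 of these had a log2 fold change below 0, with a median of -0.71 against -0.01 for all genes. limma called 0, and 6 lower and 0 higher had an unadjusted p under 0.05, against 1432 and 1186 of all 13607 genes. In 5 of the 10 the CORT libraries lay below every Veh library, against 14.3% of all genes. Veh3 held the highest summed class II level, and the median without it was -0.43.

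The chains were the most abundant class II genes after Cd74. H2-Aa, the I-A alpha chain, measured 362, 328 and 673 TPM in Veh and 218, 296 and 243 TPM in CORT. The groups did not overlap, Veh3 stood far above Veh1 and Veh2, and the log2 fold change was -0.78 (SE 0.28, limma adjusted p 0.203), or -0.46 without Veh3. H2-Ab1, the I-A beta chain, measured 584, 404 and 885 TPM in Veh and 426, 426 and 373 TPM in CORT, overlapping through Veh2 (-0.54, adjusted p 0.336 by limma), and the difference was -0.25 without Veh3 and -0.82 without Veh2. H2-Eb1, the I-E beta chain, measured 353, 320 and 497 TPM in Veh and 202, 234 and 202 TPM in CORT. These groups did not overlap, and the difference of -0.85 (SE 0.19) came closer to a call than that of the other chains (limma adjusted p 0.0750).

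Cd74, the invariant chain that guards the peptide groove and guides class II molecules to the endosome, measured 1210, 923 and 2104 TPM in Veh and 785, 933 and 691 TPM in CORT. Veh2 lay below CORT2, so the groups overlapped (-0.74, SE 0.30, limma adjusted p 0.247). The difference was -0.41 without Veh3 and -1.001 without Veh2. Ciita measured 5.73, 5.06 and 5.90 TPM in Veh and 2.31, 4.45 and 2.75 TPM in CORT. It did not overlap, and the difference of -0.69 was not called (SE 0.21, limma adjusted p 0.150).

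Of the loading factors, picked out after their values were seen, the H2-DM pair that exchanges the placeholder peptide stood lowest relative to Veh. H2-DMa measured 64.2, 46.8 and 85.2 TPM in Veh and 33.5, 28.2 and 27.9 TPM in CORT (-1.07, SE 0.22, limma adjusted p 0.0642). H2-DMb1 measured 41.8, 26.95 and 63.5 TPM in Veh and 21.8, 19.3 and 18.9 TPM in CORT (-1.02, SE 0.29, adjusted p 0.127 by limma). Neither overlapped. The other beta chain H2-DMb2 and the H2-DM regulators H2-Oa and H2-Ob behaved otherwise, overlapping, with CORT2 above the other CORT libraries. H2-Ob measured 0.55, 1.03 and 2.13 TPM in Veh and 0.25, 4.10 and 0.69 TPM in CORT.

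Class II promoters are known for an X box and a Y box that RFX and NF-Y bind and through which Ciita acts. The bases from 120 to 21 before the RefSeq start are shown for 3 genes that did not overlap in the intestine and for H2-Ob, which did, with each X box core (AG, any base, AAC, any 2 bases, ATG) and Y box (GATTGG, either strand) in capitals, all on chromosome 17 of GRCm38.p6 and on the gene's own strand:
H2-Aa (chr17:34287844-34287943, - strand): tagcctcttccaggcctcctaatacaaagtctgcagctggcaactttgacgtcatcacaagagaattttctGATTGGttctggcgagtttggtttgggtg
H2-Eb1 (chr17:34305747-34305846, + strand): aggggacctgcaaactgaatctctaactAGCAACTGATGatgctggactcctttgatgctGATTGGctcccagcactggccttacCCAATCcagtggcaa
H2-DMb1 (chr17:34153071-34153170, + strand): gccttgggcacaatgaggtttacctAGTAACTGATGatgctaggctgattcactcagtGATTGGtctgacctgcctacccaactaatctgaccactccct
H2-Ob (chr17:34238785-34238884, + strand): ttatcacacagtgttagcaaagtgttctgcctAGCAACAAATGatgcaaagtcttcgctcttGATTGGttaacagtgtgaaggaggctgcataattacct
The capitals of the X and Y boxes do not overlap each other. In H2-Eb1, H2-DMb1 and H2-Ob the X box core began 92, 95 and 88 bases before the start and the Y box 60, 62 and 58 bases before it, with another Y box in H2-Eb1, on the opposite strand, 35 bases before its start. H2-Aa held the Y box, 49 bases before its start, and not these X box letters. RefSeq windows were at hand for 34 of the 49 members. Among the 8 class II genes with a window, 8 held the Y box and 4 the X box core, against 16.1% and 0.895% of all windows. Of the 22 heavy chains with one, 16 held the Y box and 0 the X box core. These genes descend from one another and share sequence, so they are not independent examples. The core of the glucocorticoid response element (ACANNNTGT) was held by 6.85% of all windows. Among the class II windows it was found in that of H2-Ob alone, 115 bases before its start. Of the 22 heavy chains with a window, 3 held that core (13.6%). H2-Ob, at 0.25 to 4.10 TPM in the intestine libraries, held both boxes, as H2-Eb1 and H2-DMb1 did. Any link between the boxes and the values in CORT was not tested.

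In bulk tissue, fewer cells of a type and less RNA per cell cannot be told apart. The markers of cells that make class II were therefore read beside it. The 8 B cell markers summed to 16.5, 21 and 23.8 TPM in intestine Veh and to 8.38, 47.5 and 10.42 TPM in CORT. CORT2 stood far above the rest, and it was also the highest intestine library in H2-DMb2 and H2-Ob. In H2-Oa, CORT2 at 3.82 TPM lay below Veh2 at 4.41 TPM. In CORT2, Ms4a1, the gene of CD20, reached 3.79 TPM, against at most 0.24 TPM in the other intestine libraries. The 8 dendritic cell markers summed to 10.25 to 20.8 TPM in Veh and 7.76 to 13.8 TPM in CORT, and 1 of them, Cd209a, lay lower in every CORT library (0.66 to 1.45 TPM against 1.91 to 4.71 TPM). The 10 macrophage markers summed to 157 to 273 TPM in Veh and 205 to 285 TPM in CORT, with Vsig4 at 0 in all 6 libraries and Clec4f, a Kupffer cell gene, called higher (from at most 0.15 TPM to 5.31 to 10.29 TPM, limma adjusted p 0.0045). The 9 T cell markers overlapped between the groups, at 64.3 to 102 TPM in Veh and 64.9 to 80.8 TPM in CORT. The 4 pan-leukocyte markers summed to 118, 214 and 197 TPM in Veh and 106, 168 and 106 TPM in CORT, all 4 overlapped, and limma called 0, with Cd52 (-0.67) the 1 at an unadjusted p under 0.05. The part of these cells in the class II values was not tested.

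**Figure D3:**
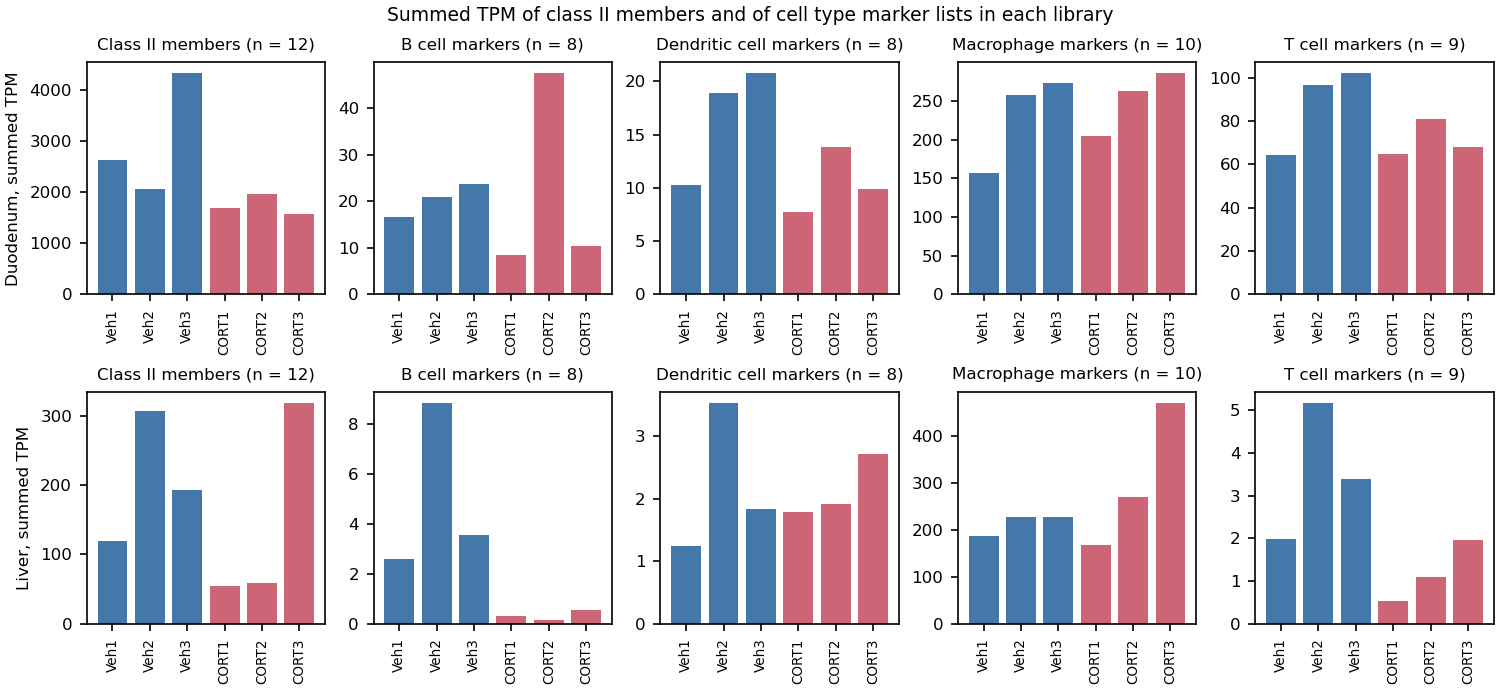
Summed TPM of the 12 class II members and of the lists of B cell, dendritic cell, macrophage and T cell markers in each library, in the intestine (top) and liver (bottom), with bars starting at 0. In the intestine the class II sum runs from 2064 to 4325 TPM in Veh and from 1564 to 1961 TPM in CORT, and in the liver CORT3, at 319 TPM, stands above the other CORT libraries and is also the highest in macrophage markers.

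The 8 epithelial markers of the intestine summed to 13929 to 20585 TPM in Veh and 26991 to 29712 TPM in CORT, mostly from the lipid carrier Apoa4 (7906 to 12570 TPM against 16882 to 21545 TPM). Of the 8, 6 overlapped between the groups, Vil1 and Krt20 among them, and the median log2 fold change was 0.07. limma called 0 of the 8, and 2 higher and 0 lower had an unadjusted p under 0.05.

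The upstream regulators were counted as well. Of 18 regulators, among them the RFX and NF-Y complexes and the interferon gamma pathway, 17 were tested in the intestine. limma called 0, with 1 higher and 4 lower at an unadjusted p under 0.05, against 1186 and 1432 of all 13607 genes. The groups did not overlap for 3 regulators standing higher and 5 standing lower, against 12.2% and 14.3% of all genes. The most abundant, Irf1, measured 170, 154 and 135 TPM in Veh and 145, 130 and 143 TPM in CORT and overlapped. Ifngr1, a chain of the receptor, also overlapped, at 58.8 to 70.5 TPM in Veh and 69.9 to 85.3 TPM in CORT. Ifng itself was at most 0.22 TPM in the intestine and at most 0.04 TPM in the liver. Irf8 and Creb1, which did not overlap, were picked out after their values were seen. Intestine Irf8 measured 68.5, 47.7 and 49.4 TPM in Veh and 31.9, 34.5 and 34.6 TPM in CORT (-0.68, adjusted p 0.0899 by limma). Creb1 ran from 3.67 to 4.71 TPM in Veh and from 6.18 to 11.2 TPM in CORT (0.80, adjusted p 0.111 by limma). The 7 tested genes of class II peptide processing, such as Ifi30 and Ctss, all overlapped, and limma called 0 of them, with 0 at an unadjusted p under 0.05. Among 5 costimulatory genes 4 were tested and 1 was called, against 1.23% of all genes called higher. Icosl, the ligand of ICOS on T cells, rose from 5.52, 6.15 and 7.50 TPM in Veh to 14.9, 16.1 and 12.5 TPM in CORT (1.07, SE 0.16, limma adjusted p 0.0272). That call was lost whenever a library was left out (adjusted p 0.0541 to 0.0919 by limma). The 3 other costimulatory genes tested stood lower in CORT, and limma called 0 of them. Cd40 measured 1.92, 2.42 and 2.05 TPM in Veh and 0.12, 1.41 and 0.68 TPM in CORT (-0.92, adjusted p 0.169 by limma). Cd40 and Cd86 (-0.33) did not overlap, against 14.3% of all genes lower without overlap, while Cd274 (-0.21) did.

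In the liver, the same comparison was made for the organ of metabolism that the study paired with the intestine. None of the 26 members tested was called by limma, and 0 higher and 8 lower had an unadjusted p under 0.05, against 1973 and 1060 of all 11699 genes. Over all 11699 genes tested, 4.91% were called higher and 2.01% lower. When each library was rescaled by the median of its ratios, all genes split into 543 called higher and 468 lower, in place of 575 and 235, and 2 members were called lower, H2-Q4 and Tap1. The groups did not overlap for 0 members standing higher and 7 standing lower, against 20.6% and 11.6% of all genes.

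The abundant class I genes of the liver overlapped between CORT and Veh. H2-Q10 measured 1558, 1777 and 1737 TPM in Veh and 1566, 1703 and 1753 TPM in CORT (log2 fold change -0.01, with a 95% interval of -0.31 to 0.29). H2-K1 measured 1457, 1393 and 1590 TPM in Veh and 1349, 1522 and 1536 TPM in CORT (-0.01, interval -0.31 to 0.29). B2m measured 2478, 2404 and 2477 TPM in Veh and 2310, 2639 and 2735 TPM in CORT (0.06, interval -0.25 to 0.36). H2-D1 measured 430, 429 and 450 TPM in Veh and 379, 468 and 590 TPM in CORT, a wider spread in CORT than in Veh. These differences near 0 turned sign in some alternatives.

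Some heavy chains of the liver stood lower in CORT without being called, and 3 of them were picked out after their values were seen. H2-Q4 measured 17.3, 24.5 and 21.1 TPM in Veh and 8.78, 13.8 and 14.6 TPM in CORT (-0.73, SE 0.22, limma adjusted p 0.0923). H2-T22 measured 61.2, 63.1 and 65.4 TPM in Veh and 41.4, 46.9 and 53.9 TPM in CORT (-0.42, adjusted p 0.109 by limma). H2-T23 measured 149.2, 189 and 180 TPM in Veh and 116, 127 and 148.6 TPM in CORT (-0.40, adjusted p 0.158 by limma). None of the 3 overlapped, although the lowest Veh and the highest CORT library of H2-T23 lay within 1 TPM of each other. The 13 heavy chains tested had a median log2 fold change of -0.37, 10 of them lower, against a median of 0.08 for all genes. H2-Q1 (0.57) and H2-M3 (0.25) stood higher and overlapped. H2-Q5 varied within groups, at 1.4, 1.97 and 16.2 TPM in Veh and 13.5, 1.34 and 1.32 TPM in CORT, 1 high library in each group.

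Tap1, Tap2, Tapbp and the immunoproteasome subunits were lower in level in the liver than in the intestine. Tap1 measured 5.78, 8.95 and 7.42 TPM in Veh and 4.33, 4.85 and 4.64 TPM in CORT, without overlap (-0.56, SE 0.17, limma adjusted p 0.0912). Tap2 measured 8.36, 11.1 and 9.27 TPM in Veh and 6.89, 6.67 and 8.66 TPM in CORT, overlapping through CORT3 (-0.33, SE 0.16, adjusted p 0.235 by limma). Tapbp measured 29.8, 42.2 and 34.0 TPM in Veh and 26.5, 28.3 and 40.2 TPM in CORT, and Nlrc5 measured 2.69, 4.70 and 3.29 TPM in Veh and 2.84, 4.83 and 3.43 TPM in CORT. Both overlapped. Of the 5 immunoproteasome genes 1 was called, against 2.01% of all genes called lower. Psmb9 fell, from 12.3, 12.7 and 12.1 TPM in Veh to 4.99, 7.85 and 6.82 TPM in CORT (-0.84, SE 0.17, limma adjusted p 0.0330). With 1 library left out at a time, that call held once in 6 fits, without CORT2, and it was lost with the replicate number as a block (adjusted p 0.0747). Psmb10 overlapped, at 31.3, 50.5 and 33.7 TPM in Veh and 19.4, 24.7 and 31.7 TPM in CORT (adjusted p 0.182 by limma).

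The other lists of the antigen presentation pathway gave no call in the liver. Of the regulators 15 were tested, and 3 higher and 2 lower had an unadjusted p under 0.05, beside 1973 and 1060 of all 11699 genes. Of the class I-like genes 5 were tested, and 3 higher and 0 lower had one. Fcgrt measured 64.7, 87.2 and 85.6 TPM in Veh and 132, 121 and 101 TPM in CORT, without overlap (0.57, SE 0.17, limma adjusted p 0.0904). Azgp1, the most abundant of that list and a lipid-mobilising relative of class I chains, overlapped, at 1222 to 1402 TPM in Veh and 1349 to 1414 TPM in CORT. Of 5 loading genes of the endoplasmic reticulum, 5 of class II peptide processing and the 3 standard proteasome subunits, 0 had an unadjusted p under 0.05. Icosl was too low to be tested.

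H2-Aa, H2-Ab1, H2-Eb1 and Cd74 of the liver were lower in CORT1 and CORT2 than in every Veh library, and not in CORT3. H2-Aa measured 16.9, 48.3 and 30.3 TPM in Veh and 7.83, 7.29 and 44.4 TPM in CORT (-1.02, SE 0.69, limma adjusted p 0.397). H2-Ab1 measured 23.6, 64.4 and 38.6 TPM in Veh and 12.7, 11.4 and 64.4 TPM in CORT (-0.84, adjusted p 0.464 by limma). H2-Eb1 measured 19.3, 45.6 and 25.03 TPM in Veh and 6.43, 5.84 and 41.4 TPM in CORT (-1.17, SE 0.71, adjusted p 0.345 by limma). In each, CORT1 and CORT2 lay below all Veh libraries and CORT3 lay near Veh2. Cd74 showed the same order, at 53.6, 134 and 90.02 TPM in Veh and 26.1, 31.0 and 161 TPM in CORT, with CORT3 the highest of all 6.

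All 6 class II genes tested in the liver overlapped between the groups and had log2 fold changes below 0, with a median of -0.89. Without CORT3 the median was -1.59, and H2-Eb1 was called lower (-2.03, limma adjusted p 0.0306, CORT being 2 libraries there). Over the 6 fits with 1 library left out, the median ran from -1.59 to -0.53. H2-Eb1 ran from -2.03 to -0.71 over these fits and was called in 1 of the 6. Ciita averaged under 1 TPM in both groups and was not tested (0.11 to 0.52 TPM in Veh, 0.02 to 0.31 TPM in CORT). H2-DMb2, H2-Oa and H2-Ob, also too low to be tested, were lower in all 3 CORT libraries, at most at 0.16, 0.05 and 0.15 TPM against at least 0.26, 0.19 and 0.26 TPM in Veh. The summed class II level was 120, 307 and 193 TPM in Veh and 54.9, 59.0 and 319 TPM in CORT.

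The marker lists were read beside these libraries. The 10 macrophage markers summed to 188 to 228 TPM in the liver Veh libraries, to 168 and 270 TPM in CORT1 and CORT2 and to 472 TPM in CORT3. CORT2 was thus above every Veh library in macrophage markers and below each in class II. Adgre1, the gene of F4/80, measured 1.90, 3.67 and 2.47 TPM in Veh and 2.87, 4.69 and 11.9 TPM in CORT, again highest in CORT3. The 8 B cell markers summed to 2.57 to 8.84 TPM in Veh and 0.15 to 0.53 TPM in CORT. The 2 that were tested, Cd79a and Cd79b, did not overlap between the groups, against 11.6% of all genes lower without overlap. Both reached the limit of 1 TPM through Veh alone (means of 1.13 and 1.62 TPM, against 0.04 and 0.06 TPM in CORT). The filter thus favoured that direction, and the lack of overlap adds nothing to the sums. CORT3, the highest library in class II, lay below every Veh library in the B cell sum. The 9 T cell markers summed to 1.99 to 5.18 TPM in Veh and 0.54 to 1.97 TPM in CORT, and the 8 dendritic cell markers to 1.24 to 3.54 TPM in Veh and 1.78 to 2.71 TPM in CORT. Veh2, the highest Veh library in class II, was also the highest Veh library in the B cell, dendritic cell and T cell sums, and in the macrophage sum it was level with Veh3 (228.5 and 228.3 TPM). The 4 pan-leukocyte markers summed to 23.8, 35.3 and 25.5 TPM in Veh and 12.6, 25.6 and 36.4 TPM in CORT, and limma called 0 of the 3 tested. The part of these cells in the class II values was not tested.

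**Figure D4:**
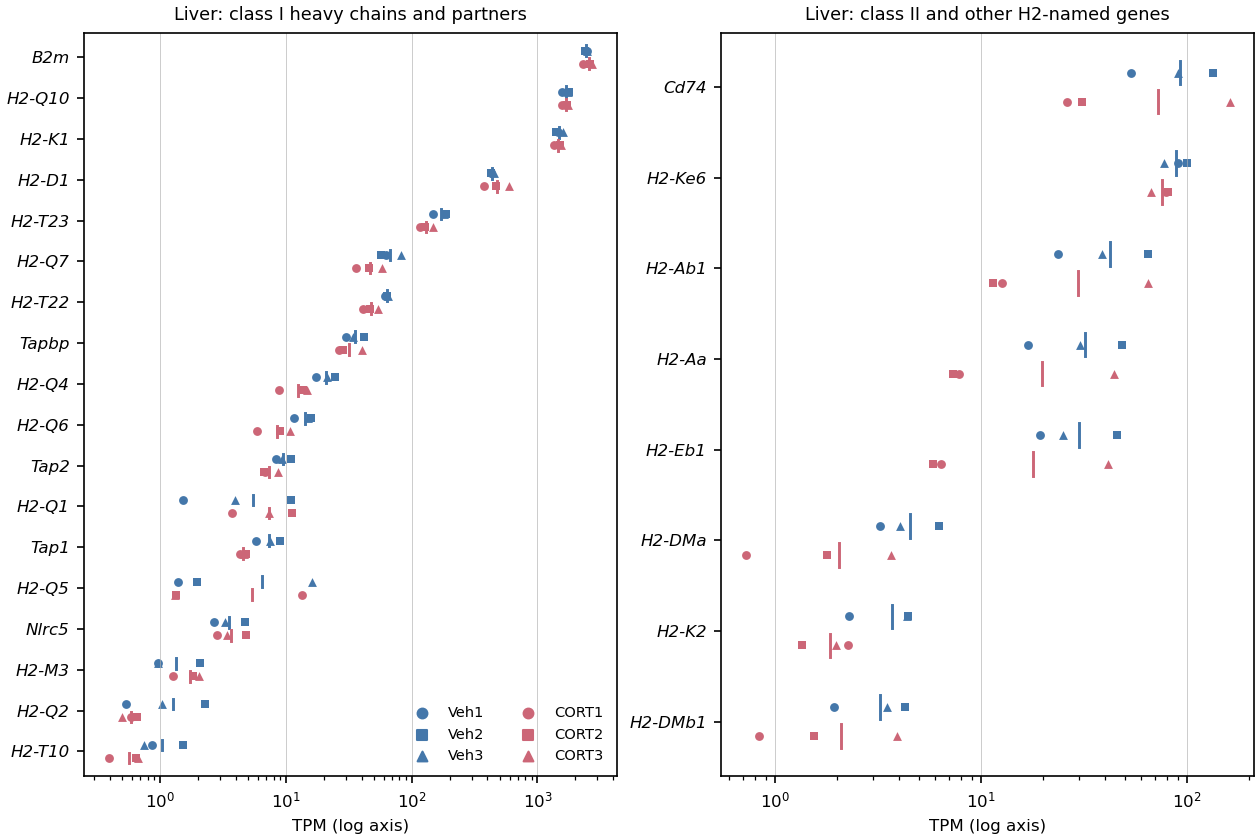
TPM (log axis) of the 26 members tested in the liver, in each Veh library (blue) and CORT library (red), with a vertical bar at each group's mean. In the rows of H2-Aa, H2-Ab1 and H2-Eb1 the CORT1 and CORT2 points lie left of every Veh point and CORT3 lies near Veh2, CORT3 is the highest point of Cd74, and B2m, H2-Q10 and H2-K1 overlap.

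The effects in the 2 tissues were set against each other in a limma fit with a treatment by tissue term. Of the 35 members tested in it, 1 was called at an adjusted p of 0.05 or less, against 3.61% of all 14806 genes tested. It was H2-K2, a transcribed pseudogene in GENCODE M21 and a relative of H2-K1, with 0% of its windows of 150 bases found unchanged in another gene's transcript. H2-K2 measured 2.66, 2.53 and 1.79 TPM in intestine Veh and 3.36, 6.87 and 4.61 TPM in intestine CORT. In the liver it measured 2.29, 4.43 and 4.37 TPM in Veh and 2.25, 1.35 and 1.97 TPM in CORT. CORT stood above Veh in the intestine and below it in the liver without overlap, though neither change was called alone (log2 fold changes 0.81 and -0.69, limma adjusted p 0.150 and 0.137). The difference of 1.499 (SE 0.36, limma adjusted p 0.0476) kept its call in 2 of 12 fits with 1 library fewer, those without intestine CORT1 and without liver Veh1, with adjusted p of 0.0261 to 0.112 over the 12.

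For the other members the difference between tissues was not called. H2-Q10 came nearest (0.93, SE 0.24, limma adjusted p 0.0652), with 0.91 in the intestine, where it was low, and -0.01 in the liver, where it was high. For Tap2 the difference was -0.43 with a 95% interval of -0.85 to -0.000509, and it was not called (adjusted p 0.273 by limma). For H2-Aa it was 0.24 with an interval of -1.60 to 2.08, and for H2-Eb1 0.32 with an interval of -1.48 to 2.12, so that the liver libraries set no narrow limit on it. For H2-K1 it was 0.23 with an interval of -0.12 to 0.58.

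**Figure D5:**
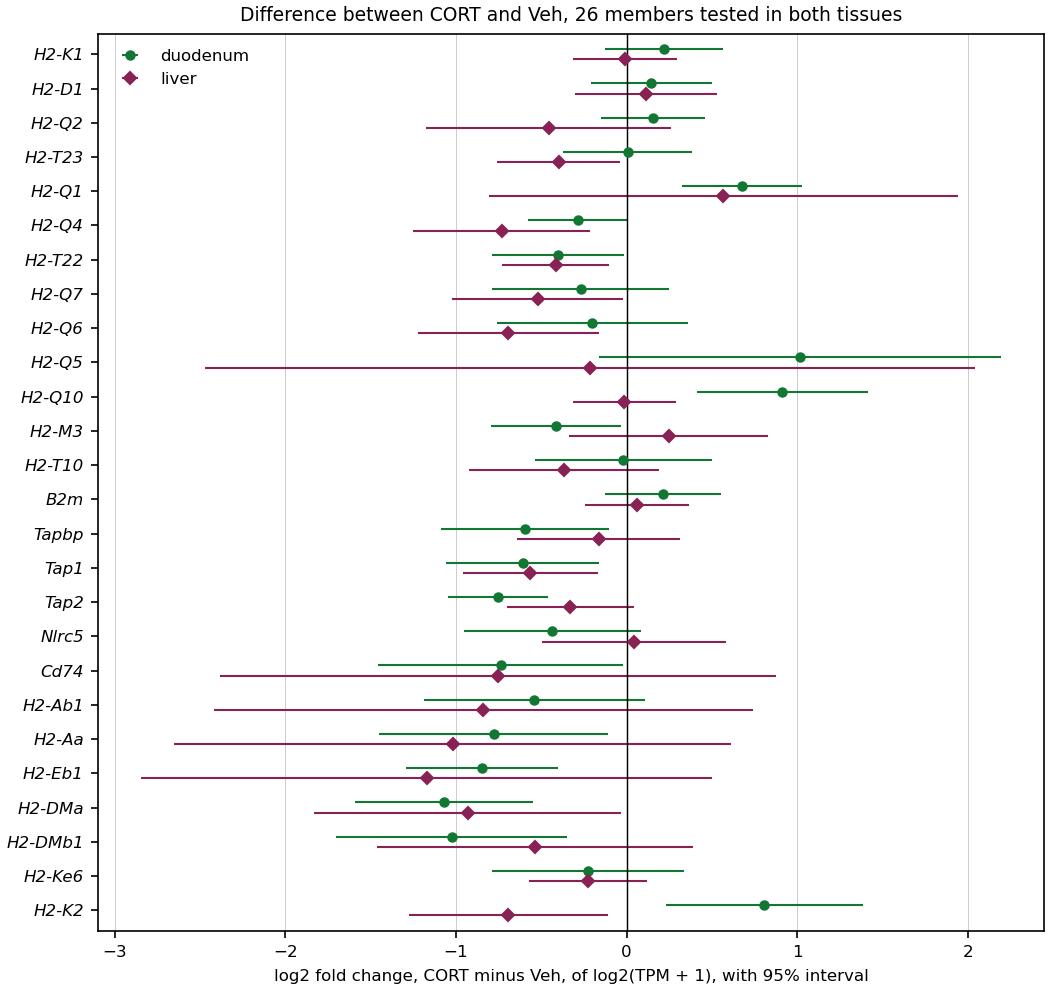
Log2 fold change between CORT and Veh of log2(TPM + 1) for the 26 members tested in both tissues, with 95% intervals from limma that are not adjusted for the number of genes, intestine as circles and liver as diamonds. The class II intervals of the liver chains cross 0, and H2-K2 lies above 0 in the intestine and below 0 in the liver.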

How the data were processed

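Duodenum and liver RNA-seq of CORT- and Veh-treated mice was analysed (n = 3 libraries per group and tissue, grouped by the labels). The members and the gene lists were chosen with earlier results of these data known. The authors used SeqPrep and Sickle for trimming, HISAT2 for alignment, StringTie for assembly and RSEM for abundance, and deposited a TPM value for every gene and library. The labels name GRCm39 as the build, and tool versions are not given in the sources used here. TPM keeps no depth, so no counting error is given. Values were taken to log2(TPM + 1). A gene was tested if its mean reached 1 TPM in Veh or CORT. The intestine and the liver had separate fits in limma 3.58.1 under R 4.3.3 (lmFit, then eBayes with a trend). The treatment by tissue fit took all 12 libraries as independent, with 1 spread for both tissues. The labels do not say whether a liver and an intestine library came from the same mouse, so such pairing was not modelled. Benjamini-Hochberg adjustment ran over all genes tested. The count models planned for read counts were not used, because the tables hold TPM. The fits were tested on simulated data. Alternatives were a 0.1 pseudocount, all genes unfiltered, median-ratio scaling, removal of acinar genes, a replicate block, fewer libraries and other thresholds.

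Per-library values were given for H2-Aa, H2-K1, Cd74, B2m, Ciita, Nlrc5, each member called, and the 3 members of each class with the highest mean in a tissue. Genes of other lists were named where called or among the highest 2 of their list. Other genes named were chosen after their values were seen. Promoters are RefSeq windows on GRCm38.p6, read apart from the files' build.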

Additional observations from a re-analysis of the deposited data

Results flagged for a closer look

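The effect of CORT on H2-K2 differed between the tissues by 1.499 on the log2 scale (intestine minus liver, limma adjusted p 0.0476), higher in 3 of 3 CORT libraries than in every Veh library of the intestine and lower in 3 of 3 than in every Veh library of the liver. All 12 values were between 1.35 and 6.87 TPM. Neither tissue's change in H2-K2 was called alone (limma adjusted p 0.150 in the intestine and 0.137 in the liver). H2-K2 was the 1 member called of 35 tested, against 3.61% of all genes, and its call was lost in 13 of 16 alternatives. The effect on Icosl, which is no member, differed by 1.29 (limma adjusted p 0.0206). In the liver Icosl stood between 0.21 and 0.86 TPM, too low to be tested there alone, and at such levels the pseudocount of 1 holds the log2 difference near 0, so this value restates the rise in the intestine.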

How the results depend on the processing

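The single call among the intestine members, Tap2, gave way to 0 calls without a filter on low values, without both Veh2 and Veh3, with the replicate block, and in each fit that left out 1 library (range 0 to 0). It stayed 1 with a pseudocount of 0.1, with either scaling and with no limit on the fold change. With unadjusted p-values 12 members passed, 3 higher and 9 lower. The liver count of 0 became 2 with median-ratio scaling, 4 with unadjusted p-values, and 0 to 1 with a library left out. The count of tissue differences, 1, became 2 with median-ratio scaling (H2-K2 and H2-Q10), 0 without a filter, 0 with a pseudocount of 0.1, 0 with the replicate block, and 0 to 2 with a library left out. Over all genes, that scaling changed 193 higher and 341 lower into 329 and 336. The cause of these shifts was not tested. Same-numbered Veh and CORT libraries deviated together with r of -0.00 to 0.07 in the intestine and -0.12 to 0.04 in the liver, so the labels' numbers were not taken to pair them, and the block also ended the intestine calls of Psmb9, Psmb10, Tapbpl, Fcgrt and Icosl.

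The intestine heavy chain median was 0.15 without Veh2 and Veh3 and -0.0782 to 0.124 with 1 library left out. The liver heavy chain median was -0.20 without a filter, and the liver partner median ran from -0.344 to -0.0324 with a library left out. Values near 0 changed sign: H2-T23 in the intestine (-0.0270 without acinar genes, -0.0815 to 0.158 with a library left out), and in the liver H2-K1 (-0.0536 to 0.0495), H2-D1 (-0.0497 to 0.270), H2-Q10 (-0.0711 to 0.0339), B2m (-0.0370 with median-ratio scaling) and Nlrc5 (-0.0251 with that scaling, -0.121 to 0.218). The tissue difference ran from -0.18 to 1.04 for H2-Aa and from -0.14 to 1.18 for H2-Eb1. Of 608 alternative values over 52 single-gene results, 508 kept direction and stayed called or stayed uncalled, 74 lost a call, 6 gained one and 20 changed sign. Results not called in the main fit had no call to lose, so the 508 do not measure how stable the calls were. In the intestine the call was lost in 9 of 12 alternatives for Tap2, Psmb10, Tapbpl and Icosl. It was lost in 8 of 12 for Psmb9 and 10 of 12 for Fcgrt. The liver call of Psmb9 was lost in 7 of 10, and the tissue difference of H2-K2 in 13 of 16. With depth unknown, the spread of 3 libraries per group alone limits how small a difference could be called.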
